A study of Mus musculus with 4 samples.

Results

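CD8 T cells without effector genes were chosen by the UMIs of 15 genes in single-cell RNA profiles of lymphoma-bearing spleens. A UMI is a unique molecular identifier, the tag that lets each captured transcript be counted once. A barcode was selected if it held 300 to 3000 detected genes, at least 1 UMI of Cd8a or Cd8b1, at least 1 UMI of Cd3d, Cd3e, Cd3g or Trac, no UMI of Cd4, and UMIs of at most 1 of the 8 effector genes Gzmk, Gzmb, Nkg7, Ccl3, Ccl4, Ccl5, Pdcd1 and Eomes. These conditions were met by 109 of the 1770 cells kept. They were 26 cells of the combination, 47 of anti-CD20, 25 of anti-CD27 and 11 of the isotype control.

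The profiles were made by Drop-seq, in which a cell and a barcoded bead share a droplet, on splenocytes of BALB/c mice that carried BCL1, a transplantable mouse B cell lymphoma. All mice had been given 10000 BCL1 cells, and the spleens were taken on day 13. The combination came from mice given both antibodies, with anti-CD20 injected on day 4 and the injections of anti-CD27 spread over days 5 to 8. The anti-CD20 and the anti-CD27 library came from mice given that antibody alone, and the isotype control from mice given control antibody. Each treatment was 1 library, and the number of mice behind it was not given in the sources used here. The single-cell section of the methods places the injections on other days than the labels do, and in the table the isotype control's barcodes are named PBS.

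A CD8 T cell recognizes peptides on MHC class I molecules through its T cell receptor, with CD8 as coreceptor. Before it meets antigen, such a cell recirculates through spleen and lymph nodes, guided by Ccr7, survives on IL-7 through Il7r, and keeps the transcription factors Lef1 and Tcf7. After activation it makes granzymes and chemokines, and CD27, a costimulatory receptor of the TNF receptor family, is present on its surface from the start. Interferons act on all these cells and switch on genes such as those of the guanylate-binding proteins.

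The cells kept held 917486 UMIs in the combination, 939565 in anti-CD20, 908930 in anti-CD27 and 440710 in the isotype control. The selected cells held 38177, 69652, 33160 and 17800 UMIs in the same order, with a median of 1347 UMIs and 753 genes per cell, and the lowest and highest cell held 420 and 8401 UMIs. Each treatment being 1 library, no test between treatments was made. Intervals are at 95% and hold counting error alone, so variation among mice or cells is not in them. No selected barcode was found in more than 1 library.

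The label was checked on genes that played no part in the selection. Dapl1, a gene of resting T cells, had 40, 48, 12 and 13 UMIs in the combination, anti-CD20, anti-CD27 and the isotype control. Lef1 had 24, 45, 20 and 19 UMIs and Il7r 25, 26, 15 and 4 UMIs in the same libraries. All 3 genes were thus present in each library. Of 9 genes of naive T cells, among them Dapl1, Lef1, Il7r, Tcf7, Ccr7, Satb1, S1pr1 and Klf2, a cell held UMIs of 4 in the median, 74 of the 109 cells (67.9%) held at least 3, and 9 cells held none. The 8 genes of CD4 and regulatory T cells summed to 1, 5, 5 and 1 UMIs in the combination, anti-CD20, anti-CD27 and the isotype control. Cd4 itself was at 0 through the selection. The 14 genes of NK and innate-like lymphocytes summed to 34, 10, 20 and 1 UMIs. Without the barcodes described next, the second sum was 11, 10, 4 and 1 UMIs.

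Some barcodes carried RNA of another lineage as well. In 8 of the 109, at least 20 UMIs came from the MHC class II genes Cd74, H2-Aa, H2-Ab1 and H2-Eb1 or from the myeloid marker list, a threshold set after seeing the data. They were 2 barcodes of the combination, 3 of anti-CD20, 2 of anti-CD27 and 1 of the isotype control, and they held 25287 UMIs, 15.9% of all UMIs of the selected cells. In 6 of the 8 a single Cd8 UMI had met the condition on Cd8a and Cd8b1. One barcode of the combination held 713 UMIs of the neutrophil genes S100a8 and S100a9 among its 2260 UMIs, and one of anti-CD20 held 262 MHC class II and 148 proliferation UMIs among 8401. The results were also computed without these 8 mixed barcodes.

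The limit on effector genes was looked at from both sides. Of the 109 cells, 49 held none of the 8 effector genes and 60 held 1, which was Nkg7 in 47 cells, Ccl5 in 6, Eomes in 5, Gzmk in 1 and Ccl3 in 1. Just outside lay 30 cells with 2 effector genes, 14 of them in the combination, 6 in anti-CD20, 8 in anti-CD27 and 2 in the isotype control. Dapl1 was detected in 38.8% of the cells with 0 effector genes, 41.7% of those with 1, 10% of those with 2 and 1.52% of the 66 cells with at least 3. Il7r and Tcf7 did not set the cells with 2 effector genes apart from the selected ones. In the same order Il7r was found in 18.4%, 43.3%, 40% and 10.6%, and Tcf7 in 28.6%, 40%, 33.3% and 7.58%. Lgals1, which encodes the lectin galectin-1 and is abundant in activated T cells, was lower in the selected cells than outside, with 6.12%, 15.0%, 30% and 83.3%. S100a4, a calcium-binding protein of memory and effector cells, was found in 2.04%, 1.67%, 30% and 59.1%. At least 6 genes of the proliferation list were found in 4.08%, 5.0%, 6.67% and 60.6% of these cells. The cells with at least 3 effector genes were also deeper, with a median of 2660 UMIs against 1181 in the cells with 2.

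**Figure D1:**
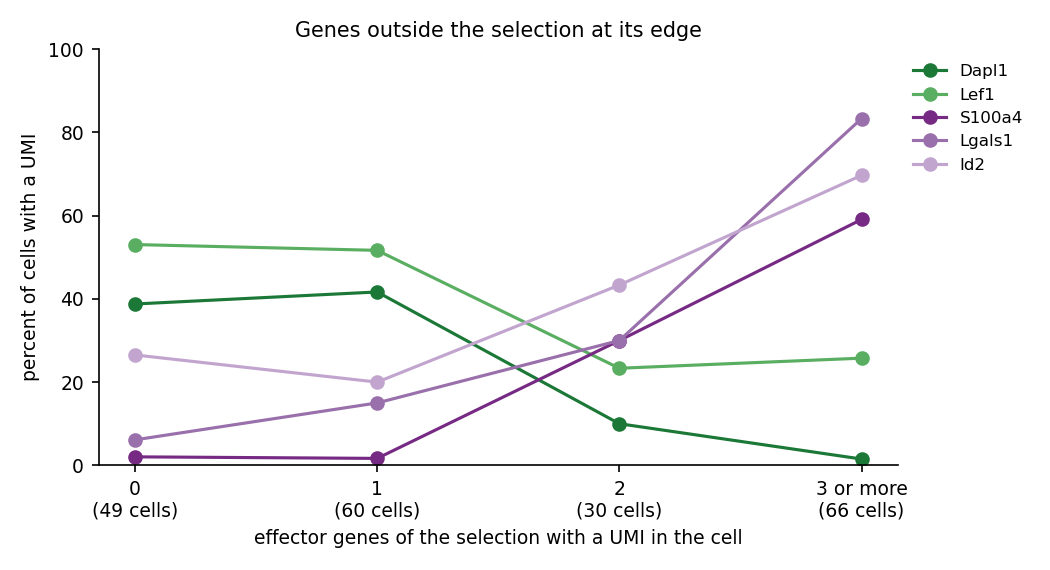
Percent of CD8 T cells with a UMI of 5 genes outside the selection, by the number of the 8 effector genes found in the cell (cells with 0 or 1 are the selected ones, all libraries pooled). Dapl1 and Lef1 lie higher in the selected cells, and S100a4, Lgals1 and Id2 lie higher in the 66 cells with 3 or more effector genes.

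The selected cells formed 6.02% of the cells kept in the combination (95% exact Clopper-Pearson interval 3.97% to 8.69%) and 9.38% in anti-CD20 (6.97% to 12.3%). They formed 5.03% in anti-CD27 (3.28% to 7.34%) and 3.24% in the isotype control (1.63% to 5.72%). The combination minus anti-CD20 was -3.36 percentage points (Newcombe interval -6.79 to 0.12), and anti-CD27 minus the isotype control was 1.79 points (-1.14 to 4.49). Both intervals held 0, although with no upper limit on genes the first was -3.44 points (-6.81 to -0.07). The cells kept include the B cells, whose number differed between libraries. Among cells without a Cd79a or Cd79b UMI, the selected cells were 6.18% of 421 in the combination and 15.2% of 264 in anti-CD20, a difference of -8.98 points (-14.2 to -4.28). They were 6.89% of 305 in anti-CD27 and 5.80% of 138 in the isotype control, a difference of 1.09 points (-4.64 to 5.52). This base also left out selected cells that held such a UMI. It kept 26 selected cells of the combination, 40 of anti-CD20, 21 of anti-CD27 and 8 of the isotype control. Among cells with a UMI of Cd3d, Cd3e, Cd3g or Trac, the selected cells were 12.6% of 207 in the combination and 24.1% of 195 in anti-CD20, a difference of -11.5 points (-19.1 to -3.99). They were 15.8% of 158 such cells in anti-CD27 and 16.2% of 68 in the isotype control, a difference of -0.35 points (-11.9 to 9.12).

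Among all CD8 T cells, with or without effector genes, they were 26 of 68 in the combination (38.2%) and 47 of 57 in anti-CD20 (82.5%). In anti-CD27 they were 25 of 66 (37.9%) and in the isotype control 11 of 14 (78.6%). The effector genes set this split, so it is a description and no finding on its own. Cells with at least 500 UMIs were also thinned to 500 UMIs and the selection was repeated. This left out 25 shallower cells of the combination and 43 of anti-CD20. The share was then 5.90% of 407 cells in the combination and 6.55% of 458 in anti-CD20, a difference of -0.65 points (-3.91 to 2.68). Thinning also removes UMIs of effector genes, so a cell outside the selection could newly meet it.

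**Figure D2:**
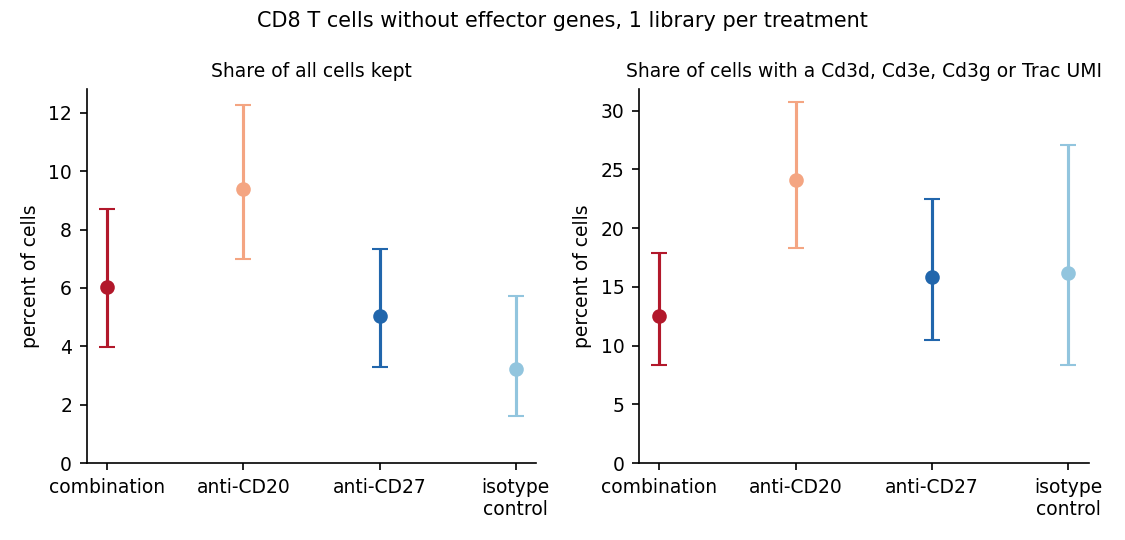
Share of CD8 T cells without effector genes (percent, with exact 95% intervals for counting error) among all cells kept and among cells with a Cd3d, Cd3e, Cd3g or Trac UMI, 1 library per treatment. Anti-CD20 has the highest share on both bases, at 9.38% and 24.1%.

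The genes of resting T cells were measured next. Tcf7, the transcription factor TCF1, stood at 393 CPM in the combination (15 UMIs), 373 CPM in anti-CD20 (26 UMIs), 633 CPM in anti-CD27 (21 UMIs) and 281 CPM in the isotype control (5 UMIs). CPM are a gene's UMIs scaled to the same total of selected-cell UMIs in every library. Ccr7, the receptor that guides T cells into lymphoid tissue, stood at 367, 388, 241 and 449 CPM in the same libraries. No order of the treatments was common to both genes. Klf2, which keeps T cells quiescent and recirculating, stood at 393, 603, 302 and 506 CPM, lower in both libraries with anti-CD27 than in both without. Of the 17 genes of the naive list with at least 20 UMIs, 7 lay lower and 3 higher in both libraries with anti-CD27 than in both without, beside 21.6% lower and 16% higher among all 1458 genes with at least 20 UMIs. With the mixed barcodes left out, 5 lay lower and 3 higher. The list as a whole summed to 9927 CPM in the combination, 9906 in anti-CD20, 9138 in anti-CD27 and 10955 in the isotype control. It summed to 11447, 11255, 9836 and 11023 CPM without the mixed barcodes, which put the combination above the isotype control. Thinned to 500 UMIs, a selected cell held a mean of 1.80 of the 9 naive genes in the combination, 2.21 in anti-CD20, 1.41 in anti-CD27 and 2.09 in the isotype control.

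Cd27, the target of one of the antibodies, was found in 11 of 26 cells of the combination, 28 of 47 of anti-CD20, 9 of 25 of anti-CD27 and 7 of 11 of the isotype control. Its level was 498 CPM in the combination and 675 CPM in anti-CD20, a log2 ratio of -0.43 (-1.29 to 0.36). In anti-CD27 it was 483 CPM and in the isotype control 618 CPM, a log2 ratio of -0.35 (-1.56 to 0.90). Both intervals held 0. Log2 ratios carry a pseudocount of 10 CPM and their intervals are exact conditional intervals without it. Cd70, its ligand, had no UMI in any of the libraries.

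Effector genes outside the selection were rare. Ifng, the gene of interferon-γ, had 2 UMIs, both in 1 cell of anti-CD27, and none in the other libraries. Fasl, which kills target cells through Fas, had none, and Klrg1, a receptor of terminally differentiated effector cells, had 1 UMI. Prf1, the pore-forming perforin, had 2, 5, 2 and 2 UMIs in the combination, anti-CD20, anti-CD27 and the isotype control. Ctsw, a cathepsin of cytotoxic lymphocytes, was more frequent, with 17, 24, 10 and 15 UMIs. Cd44, a marker of memory cells, was found in 8 and Cxcr3, a chemokine receptor of memory and effector cells, in 9 of the 109 cells, all 9 in the combination and anti-CD20. Id2, a transcription factor of effector CD8 T cells, had 14, 21, 13 and 0 UMIs in the same libraries, and 3 counts in the isotype control would be 169 CPM.

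Across all genes, 933 had at least 20 UMIs over the combination and anti-CD20. Of these, 52 were at least 2-fold higher (5.57%) and 107 at least 2-fold lower (11.5%) in the combination, with a median log2 ratio of -0.08. Between anti-CD27 and the isotype control, 357 genes had as many UMIs, and 31 (8.68%) were higher and 29 (8.12%) lower by this fold in anti-CD27, with a median of -0.16. With TMM scaling in place of totals the counts were 40 higher and 141 lower in the combination and 48 higher and 7 lower in anti-CD27, and the medians were -0.29 and 0.13. Without the mixed barcodes they were 38 higher and 62 lower of 726 genes in the combination, and 28 higher and 20 lower of 315 in anti-CD27.

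Summed over a list, genes of the interferon response lay higher in the cells of both libraries with anti-CD27 than in both without. At equal depth this order did not hold for the mean number of such genes per cell, but it held for the median, both given below. The list of 38 such genes summed to 12442 CPM in the combination and 7523 CPM in anti-CD20, and to 13058 CPM in anti-CD27 and 8427 CPM in the isotype control. The sums without the mixed barcodes were 11033, 7320, 11770 and 8422 CPM. Of the 20 members with at least 20 UMIs, 13 were higher in both libraries with anti-CD27 than in both without and none was lower in both, beside 16% of all genes that were higher. Without the mixed barcodes 9 of 17 were higher and 1 was lower, beside 191 and 217 of 1212 genes. The limit of 20 UMIs was taken over all libraries together, so a member such as Iigp1 could pass it mainly through those with anti-CD27.

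Ly6a lies on chromosome 15 of mm10 from 74994877 to 74998031 and encodes Sca-1, a surface protein anchored by a lipid that interferons induce in lymphocytes. It had 48 UMIs in the combination (17 of 26 cells, 1257 CPM), 17 in anti-CD20 (9 of 47 cells, 244 CPM), 72 in anti-CD27 (15 of 25 cells, 2171 CPM) and 8 in the isotype control (4 of 11 cells, 449 CPM). Both libraries with anti-CD27 thus lay above both without. The log2 ratio of the combination over anti-CD20 was 2.32 (1.54 to 3.26) and that of anti-CD27 over the isotype control 2.25 (1.22 to 3.54). These ratios were 2.68 and 2.09 without the mixed barcodes. No cell held more than 6, 4, 13 and 5 of the UMIs. After thinning to 500 UMIs, which left out 1, 4, 3 and 0 shallower cells, 32.0% of the cells held Ly6a in the combination, 11.6% in anti-CD20, 54.5% in anti-CD27 and 18.2% in the isotype control.

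The immunity-related GTPases Igtp and Iigp1, of a family that takes part in defence against intracellular parasites, had few UMIs. Igtp had 12, 4, 14 and 3 UMIs and Iigp1 18, 3, 12 and 0 UMIs in the combination, anti-CD20, anti-CD27 and the isotype control. Both lay higher in the libraries with anti-CD27, although 1 cell of the combination held 12 of its 18 Iigp1 UMIs, and for Iigp1 the lack of UMIs in the isotype control allows up to 169 CPM, by a limit of 3 counts.

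The guanylate-binding proteins defend cells against intracellular pathogens. Gbp4 stood at 602 CPM in the combination and 187 CPM in anti-CD20, a log2 ratio of 1.64 (0.65 to 2.79), and at 633 CPM in anti-CD27 and 449 CPM in the isotype control, a log2 ratio of 0.49 (-0.74 to 1.88). Gbp7 stood at 1074 CPM in the combination (41 UMIs, 12 of them in 1 cell) and 244 CPM in anti-CD20, a log2 ratio of 2.09 (1.29 to 3.05). It was not higher in anti-CD27, at 543 CPM, than in the isotype control, at 674 CPM, with a log2 ratio of -0.31 (-1.45 to 0.87). Without the mixed barcodes the ratios of the combination over anti-CD20 were 1.20 for Gbp4 and 1.65 for Gbp7. Gbp2 had 9, 5, 14 and 1 UMIs and Rtp4, a chaperone of receptors that interferons induce, 9, 5, 7 and 1 UMIs in the combination, anti-CD20, anti-CD27 and the isotype control.

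Other members did not follow this pattern. Shisa5, which was found in 91 of the 109 cells, stood at 1886 CPM in the combination and 2024 CPM in anti-CD20, and at 1809 CPM in anti-CD27 and 1854 CPM in the isotype control. Ifi27l2a, an interferon-induced gene of unclear function, stood at 576 CPM in the combination and 1235 CPM in anti-CD20, a log2 ratio of -1.09 (-1.85 to -0.41), but at 1206 CPM in anti-CD27 and 225 CPM in the isotype control, a log2 ratio of 2.37 (0.96 to 4.37). The mixed barcodes held part of the second, which was 1.49 without them (712 and 248 CPM). A single cell of anti-CD20 held 28 of its 86 UMIs and one of anti-CD27 18 of its 40. Isg15, the ubiquitin-like protein of the type I interferon response, had 5, 6, 3 and 2 UMIs in the combination, anti-CD20, anti-CD27 and the isotype control, Ifit1 0, 4, 0 and 2 and Mx1 1, 0, 0 and 1. Of the 13 members with at least 20 UMIs over the combination and anti-CD20, 6 were at least 2-fold higher and 1 lower, beside 5.57% and 11.5% of all genes, with a median log2 ratio of 0.55. Of the 7 over anti-CD27 and the isotype control, 2 were higher and none lower by this fold, beside 8.68% and 8.12% of all genes, with a median of 0.49. TMM scaling gave medians of 0.34 and 0.77. Thinned to 500 UMIs, a selected cell held a mean of 3.96 interferon genes in the combination and 3.23 in anti-CD20, and 4.50 in anti-CD27 and 4.0 in the isotype control. By this mean the combination thus did not lie above the isotype control. The medians at this depth were 4 in the combination, 3 in anti-CD20, 4.5 in anti-CD27 and 3 in the isotype control.

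**Figure D3:**
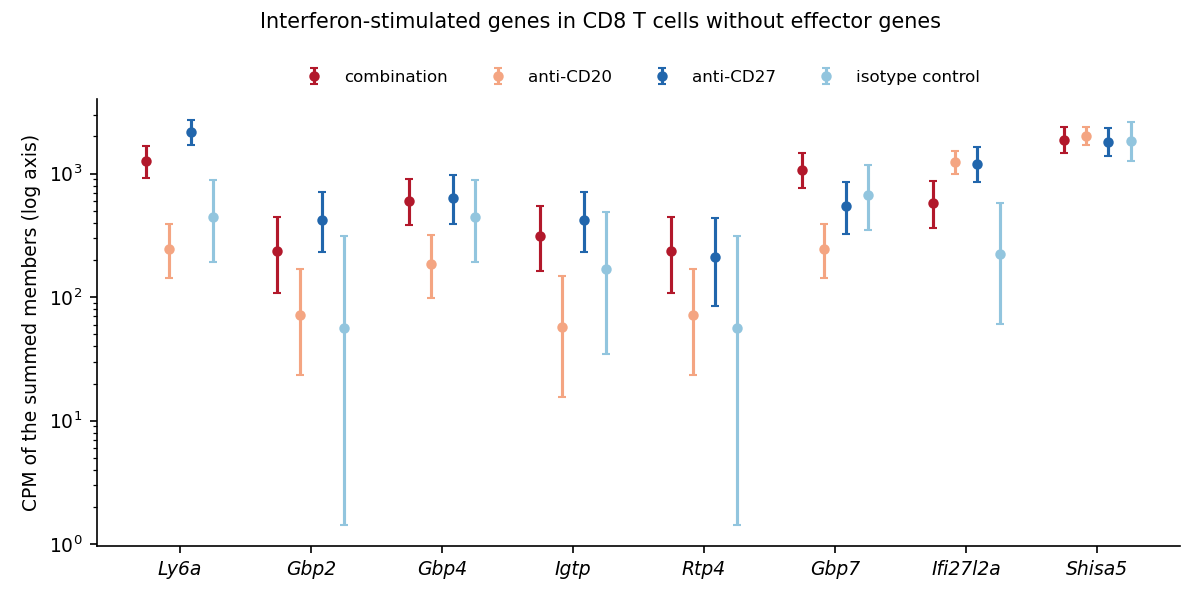
Level (CPM of the summed UMIs of the selected cells, log axis, exact 95% Poisson intervals) of 8 genes of the interferon list in the 4 libraries. Ly6a lies at 1257 and 2171 CPM in the libraries with anti-CD27 and at 244 and 449 CPM in those without, while Shisa5 lies between 1809 and 2024 CPM in all of them.

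The promoters of the members with an entry in RefSeq (GRCm38.p6, from 250 bases before to 50 after the start of transcription) were read for the letters of the response elements, since the data bear on a set of genes that interferons induce. Of the 20 members, 10 had an entry. The core of the interferon-stimulated response element, GAAA, any 2 bases and GAAA again on either strand, was found in the promoters of 7 of these 10 genes and in those of 3.99% of all 27025 genes. The interferon-γ activated site, TTCNNNGAA on either strand, was found for 6 of the 10 and for 9.55% of all genes. A gene counted if any of its promoters matched. A match describes letters only, and the list was chosen as genes that interferons induce. More matches than among all genes followed from that choice and say nothing about these cells. The promoters of Igtp (chr11:58199306-58199605), Gbp7 (chr3:142530086-142530385) and Gbp2 (chr3:142620413-142620712), all on the plus strand, are printed as the matched members with the largest ratio of the combination to anti-CD20, with both motifs in capitals, which overlap in none of the 3. The sequence is that of C57BL/6J, not of BALB/c.
Igtp: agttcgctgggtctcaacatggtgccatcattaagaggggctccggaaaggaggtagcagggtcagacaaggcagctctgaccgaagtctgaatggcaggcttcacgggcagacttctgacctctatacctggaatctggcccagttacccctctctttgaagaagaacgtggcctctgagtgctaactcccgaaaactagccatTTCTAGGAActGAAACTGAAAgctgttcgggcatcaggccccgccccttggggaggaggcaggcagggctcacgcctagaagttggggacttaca
Gbp7: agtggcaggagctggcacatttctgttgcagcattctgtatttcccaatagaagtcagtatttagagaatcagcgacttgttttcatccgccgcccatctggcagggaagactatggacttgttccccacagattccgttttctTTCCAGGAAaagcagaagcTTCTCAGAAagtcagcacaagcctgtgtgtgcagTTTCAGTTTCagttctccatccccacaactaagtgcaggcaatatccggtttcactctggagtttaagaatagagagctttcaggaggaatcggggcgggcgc
Gbp2: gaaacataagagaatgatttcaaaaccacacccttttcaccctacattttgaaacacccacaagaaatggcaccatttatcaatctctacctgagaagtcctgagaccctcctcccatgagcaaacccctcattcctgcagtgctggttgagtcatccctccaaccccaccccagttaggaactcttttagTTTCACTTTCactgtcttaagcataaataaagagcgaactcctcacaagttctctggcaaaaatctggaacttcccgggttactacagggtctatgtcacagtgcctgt
Igtp held 1 match of each motif, Gbp7 1 response element and 2 activated sites, and Gbp2 1 response element. Among those missing from the table were Ly6a, Gbp4, Gbp8, Ifi27l2a, Iigp1, Ly6e, Parp14, Rtp4 and Zbp1.

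Ly6a was then set beside its level in other cells of the same spleens. Among B cells, taken as cells with Cd79a and Cd79b UMIs and none of the CD3 genes or Trac, it was found in 49 of 64 cells (76.6%) after anti-CD27 and in 3 of 99 cells (3.03%) of the isotype control, and in 8 of 87 cells of anti-CD20. Among CD4 T cells it was found in 5 of 20 cells of the combination and 3 of 30 of anti-CD20, and in none of 13 cells of anti-CD27 and none of 11 of the isotype control, which allows shares of cells with a UMI, not of cells that express the gene, of up to 23.1% and 27.3%. Effector CD8 T cells held it in 8 of 42 cells of the combination, 1 of 10 of anti-CD20, 9 of 41 of anti-CD27 and 1 of 3 of the isotype control. Neutrophils, which should lack it, held it in 0 of 13 cells of the combination and 2 of 20 of anti-CD27 at median depths of 2879 and 2669.5 UMIs, against 1271.5 and 1358 UMIs in the selected cells of these libraries. The shares of selected cells with Ly6a in these libraries, 65.4% and 60.0%, lay above this background.

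**Figure D4:**
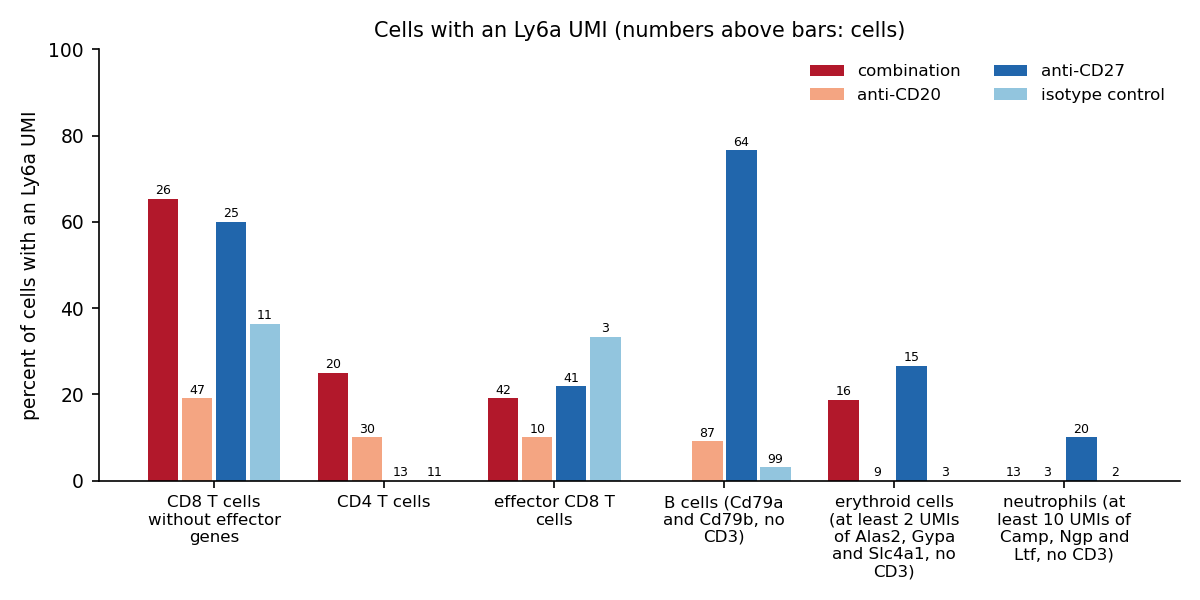
Percent of cells with an Ly6a UMI in 6 cell groups and 4 libraries, with the number of cells above each bar and no bar for the single B cell of the combination. The selected cells reach 65.4% and 60.0% in the combination and anti-CD27, against 19.1% and 36.4% in anti-CD20 and the isotype control, and B cells after anti-CD27 reach 76.6%.

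Genes of antigen presentation by MHC class I were measured as well. B2m, the invariant chain of MHC class I, stood at 8251 CPM in the combination and 6217 CPM in anti-CD20, a log2 ratio of 0.41 (0.19 to 0.62). It stood at 7057 CPM in anti-CD27 and 5225 CPM in the isotype control, a log2 ratio of 0.43 (0.08 to 0.80). H2-K1, one of the heavy chains, lay between 5112 and 5730 CPM in all libraries. Of the 18 members of the list with at least 20 UMIs over the combination and anti-CD20, none was 2-fold higher or lower, beside 5.57% and 11.5% of all genes, with a median log2 ratio of 0.22. Of the 14 over anti-CD27 and the isotype control, 1 was 2-fold higher and none lower, near the 8.68% and 8.12% of all genes, with a median of -0.08. TMM scaling moved these medians to 0.01 and 0.21, so the second changed sign.

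Some of the largest ratios between treatments came from mixed barcodes. S100a9, a neutrophil calcium-binding protein, had 365 UMIs in the combination and 4 in anti-CD20, but 355 of the UMIs in the combination lay in 1 barcode, and without the mixed barcodes the log2 ratio of 7.15 was 2.38. The myeloid marker list, of which no gene was at 0, summed to 23915 CPM in the combination, 660 CPM in anti-CD20, 4463 CPM in anti-CD27 and 787 CPM in the isotype control, and without the mixed barcodes to 1494, 620, 2340 and 805 CPM. All 6 of its members with at least 20 UMIs lay higher in both libraries with anti-CD27 than in both without, beside 16% of all genes, and 3 of 3 did so without the mixed barcodes. The cathepsin genes Ctss and Ctsb gave log2 ratios of 2.56 and 2.52 in the combination over anti-CD20, and 0.81 and 0.58 without the mixed barcodes. Of the B cell and erythroid markers, 6 of 10 and 3 of 4 lay lower in both libraries with anti-CD27, beside 21.6% of all genes. The part of this foreign RNA in the interferon list was not tested beyond the values without mixed barcodes given above.

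Genes were named here if they had at least 30 UMIs in at least 8 cells and belonged to none of the families that were only summed. Apart from Ly6a, Gbp7, Gbp4 and myeloid genes, those with the largest ratios in the combination over anti-CD20 were Prpf4b, a kinase of the splicing machinery, at 1.96 (1.08 to 2.99), Prdx1, a peroxide-reducing enzyme, at 1.81 (0.81 to 3.0), and Hspa5, the chaperone BiP of the endoplasmic reticulum, at 1.52 (0.66 to 2.49). Prpf4b was also higher in anti-CD27, with 13 UMIs against 1 in the isotype control. One cell held 12 of the 24 Prdx1 UMIs and one 14 of the 29 Hspa5 UMIs of the combination, and without the mixed barcodes their ratios were 0.93 and 0.73. Under the same limits the lowest ratio was that of Sept7, a cytoskeletal septin, with 4 UMIs in the combination and 33 in anti-CD20, at -2.08 (-4.14 to -0.69). Zcchc11, which adds uridines to RNA ends, had 4 and 27 UMIs in these libraries and Hcls1, an actin regulator of blood cells, 4 and 26, at -1.79 and -1.74, the second being -1.10 without the mixed barcodes. Arid4b, a chromatin protein, had 8 and 44 UMIs, at -1.55 (-2.89 to -0.49).

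In anti-CD27 over the isotype control, Ltb, which encodes lymphotoxin-β, was higher, with 52 and 11 UMIs and a log2 ratio of 1.33 (0.39 to 2.43), also without mixed barcodes. It stood at 1414 CPM in the combination, 1220 CPM in anti-CD20, 1568 CPM in anti-CD27 and 618 CPM in the isotype control. The log2 ratio of the combination over anti-CD20 was 0.21 (-0.31 to 0.72). Malat1, a nuclear non-coding RNA found in all selected cells, had 455 and 111 UMIs, a ratio of 1.14 (0.84 to 1.45). Among the lower genes were Npm1, a ribosome assembly factor, at 33 and 37 UMIs (-1.06, -1.79 to -0.35) and Tpt1 at 29 and 33 UMIs (-1.08, -1.86 to -0.32). Npm1 was not lower in the combination, with 54 UMIs against 78 in anti-CD20 and a log2 ratio of 0.33. For Tpt1 the log2 ratio of the combination over anti-CD20 was -0.19 (-0.82 to 0.41). Ribosomal protein genes made up 12.8% of the UMIs in the combination, 14.3% in anti-CD20, 12.5% in anti-CD27 and 16.2% in the isotype control. With the mixed barcodes left out they stood at 148712 CPM in the combination and 143759 CPM in anti-CD20, which reverses the order of these libraries. Mitochondrial genes made up 7.40% of all UMIs in the combination, 6.10% in anti-CD20, 6.86% in anti-CD27 and 3.67% in the isotype control. The part of these shares in the ratios was not tested.

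The selected cells were compared with CD4 T cells of the same libraries, taken as cells with a Cd4 UMI, no Cd8 UMI, a CD3 or Trac UMI and at most 1 effector gene. There were 74 of them, 20 in the combination, 30 in anti-CD20, 13 in anti-CD27 and 11 in the isotype control, at a median of 1264 UMIs. Here the 4 libraries, each of another treatment, serve as replicates of the difference between the cell types, and p-values measure the spread between these libraries. UMIs summed per library and cell type were tested with edgeR's quasi-likelihood test, with the library as a block and Benjamini-Hochberg adjustment. Of 456 genes tested, 20 were higher (4.39%) and 10 lower (2.19%) in the CD8 cells at an adjusted p under 0.05.

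Among the largest changes were those of the Ly6 family. Ly6c2 and Ly6c1, neighbours on chromosome 15 of mm10 (75108161 to 75112066 and 75044018 to 75048920), encode forms of the surface protein Ly6C, which CD8 T cells carry. Ly6c2 had 94, 92, 93 and 34 UMIs in the CD8 cells of the combination, anti-CD20, anti-CD27 and the isotype control, and 4, 8, 1 and 0 UMIs in the CD4 T cells of these libraries. The CD8 cells thus held more in every library. The log2 fold change was 3.99 ± 0.32 (SE, adjusted p = 4.3e-12). For Ly6c1 it was 3.74 ± 0.34 (adjusted p = 5.9e-11), with 230 UMIs in CD8 cells and 11 in CD4 T cells. The 2 genes are close copies, and reads could be split between them.

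Plac8, a gene of leukocytes that was first found in placenta, had 97 UMIs in CD8 cells and 3 in CD4 T cells. Its log2 fold change was 4.19 ± 0.57 (adjusted p = 1.5e-06). However, 26 of its UMIs lay in 1 mixed barcode of anti-CD27 and 16 in one of anti-CD20. Its UMIs in the CD8 cells were 20, 38, 33 and 6 in the combination, anti-CD20, anti-CD27 and the isotype control. Without the mixed barcodes they were 13, 14, 6 and 5, and Plac8 was not tested in that setting. Dapl1 had 40, 48, 12 and 13 UMIs in the CD8 cells of the combination, anti-CD20, anti-CD27 and the isotype control, and 5, 8, 0 and 2 in the CD4 T cells, a log2 fold change of 2.40 ± 0.41 (adjusted p = 9.9e-05). Ly6a was higher in CD8 cells of all 4 libraries, with a log2 fold change of 1.87 ± 0.43 (adjusted p = 0.0030). It had 48, 17, 72 and 8 UMIs in the CD8 cells and 16, 10, 0 and 0 in the CD4 T cells, in the same order of libraries. In anti-CD20 Ly6a was nearly level, at 244 CPM in CD8 cells and 216 CPM in CD4 T cells. Under the alternatives its adjusted p in edgeR and DESeq2 ran from 5.8e-05 to 0.70. The call was lost under DESeq2 (0.70), with no library block (0.099), without anti-CD27 (0.19) and without anti-CD20 (0.053). Npm1 was higher by 0.87 ± 0.25 (adjusted p = 0.023). Eef1b2, Rps20, Rplp1 and Rps3a1, all of the translation machinery, were also higher, with log2 fold changes of 0.59 to 0.69.

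Of the genes lower in CD8 cells, 4 were on the list of memory and activation. S100a4 had 5 UMIs in all CD8 cells and 38 in all CD4 T cells, a log2 fold change of -3.37 ± 0.64 (adjusted p = 0.00050), and was not tested without the mixed barcodes. Itgb1, the β1 integrin chain, had 10, 7, 4 and 1 UMIs in the CD8 cells of the combination, anti-CD20, anti-CD27 and the isotype control and 38, 30, 15 and 9 in the CD4 T cells, a log2 fold change of -2.62 ± 0.37 (adjusted p = 2.3e-06). Id2, S100a10 and Ldha, a lactate dehydrogenase of glycolysis, were also lower in CD8 cells, at -1.46 ± 0.37, -1.28 ± 0.26 and -1.21 ± 0.37, of which Ldha lost its call without the mixed barcodes (edgeR adjusted p = 0.088). Ifi27l2a, with 152 UMIs in CD8 cells and 211 in CD4 T cells, was lower at -1.15 ± 0.26 (adjusted p = 0.0030, and -1.79 ± 0.28 without the mixed barcodes), and Ets1, a lymphoid transcription factor, at -1.09 ± 0.24 (adjusted p = 0.0022).

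Over the lists, 4 of the 12 genes tested from the naive list were higher in CD8 cells, among them Dapl1, Ly6c1 and Npm1, and 1 was lower (Ets1). The median log2 fold change of this list was 0.45 beside -0.02 over all 456 genes. Ly6c1 is a close copy of Ly6c2, which was placed on the list of memory and activation. Npm1 is a ribosome assembly factor, so the calls of Ly6c1 and Npm1 bear little on a naive state. Of 10 genes of memory and activation, 2 were higher (Ly6c2 and Ly6a) and 4 lower, with a median of -0.31. No effector gene outside the selection was tested with all barcodes, and the 1 tested without the mixed ones, Ctsw, was higher in CD8 cells (edgeR, 3.01 ± 0.57, adjusted p = 0.0025). Of 9 interferon genes, Ly6a was higher and Ifi27l2a lower, and none of 11 T cell receptor genes and none of 14 MHC class I genes passed the test. Cd74, H2-Aa, H2-Ab1 and H2-Eb1 were also higher in CD8 cells, but none of these had enough UMIs to be tested without the mixed barcodes. Without those barcodes 32 of 431 genes passed, and without the combination 3 and without anti-CD20 7. DESeq2 called 6 genes.

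**Figure D5:**
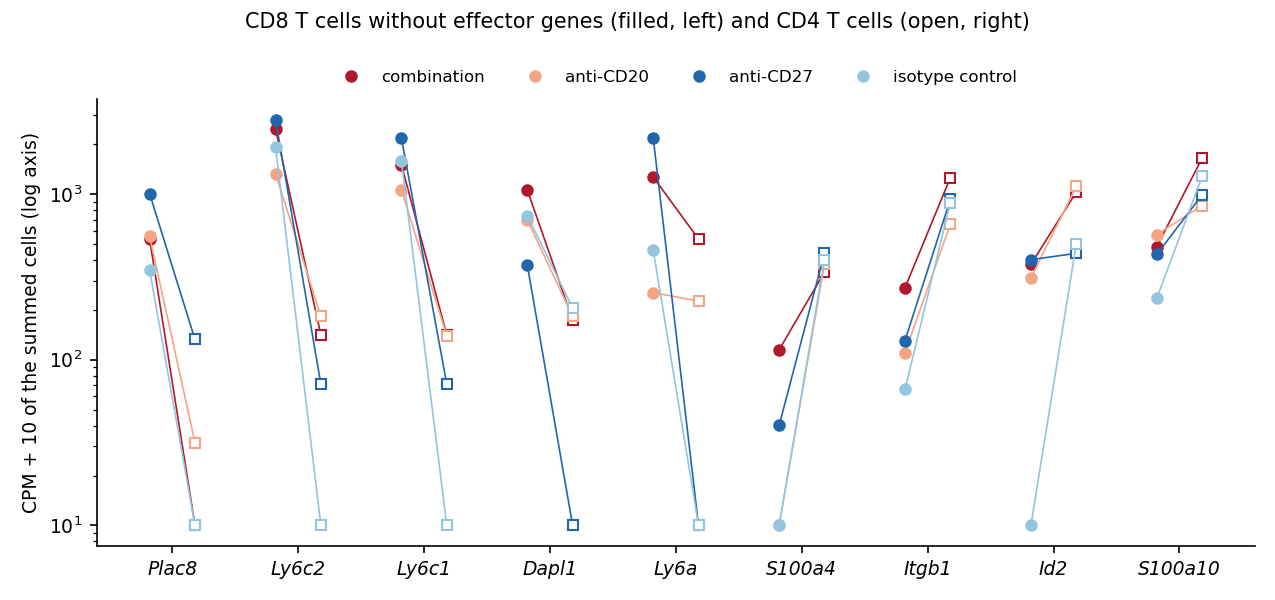
Level (CPM + 10, log axis) of 9 genes named by the test in CD8 T cells without effector genes (filled, left) and CD4 T cells (open, right) of the same library, joined by a line per library. Ly6c2, Ly6c1, Plac8 and Dapl1 are higher and S100a4, Itgb1 and S100a10 lower in the CD8 cells of all 4 libraries. The mixed barcodes, which held much of the Plac8 RNA, are included.

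The second comparison was with effector CD8 T cells, which met the same conditions but held at least 2 of the 8 effector genes. There were 96, with 42 in the combination, 10 in anti-CD20, 41 in anti-CD27 and 3 in the isotype control, at a median of 1957 UMIs. The genes of the selection were left out of the test, but genes that go with them were part of the same split, and the effector cells were deeper. Of 577 genes tested, 45 (7.8%) were higher and 22 (3.81%) lower in the cells without effector genes (edgeR, same test).

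Genes of resting T cells were higher. Dapl1 had 113 UMIs in the cells without effector genes and 16 in effector cells, a log2 fold change of 2.89 ± 0.58 (adjusted p = 0.0014). Foxp1, a transcription factor that holds T cells quiescent, was higher by 1.78 ± 0.47 (adjusted p = 0.015). Of the 14 naive genes tested, 8 were higher and none lower, with a median of 1.52 beside -0.01 over all genes. Macf1, which links actin to microtubules, was higher by 1.92 ± 0.41 (adjusted p = 0.0029). Ly6a was higher by 2.66 ± 0.36 (adjusted p = 1.7e-05), with 48, 17, 72 and 8 UMIs in the cells without effector genes of the combination, anti-CD20, anti-CD27 and the isotype control and 22, 1, 39 and 1 in the effector cells, but it was not tested without the mixed barcodes. Over its alternatives the adjusted p in edgeR and DESeq2 ran from 7.2e-12 to 0.12, and the call was lost (0.12) when all genes with at least 1 UMI were tested. Of the 10 interferon genes tested, 2 were higher, Ly6a among them, and 1, Ly6e, was lower. Cd74, H2-Aa, H2-Ab1 and H2-Eb1 were higher by 2.25 to 2.52, and no MHC class II gene was tested once the mixed barcodes, 4 of them among the effector cells of anti-CD27, had been left out.

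Genes of activated cells were lower. Lgals1 had 5, 17, 2 and 1 UMIs in the cells without effector genes of the combination, anti-CD20, anti-CD27 and the isotype control and 252, 15, 314 and 5 in the effector cells, a log2 fold change of -3.62 ± 0.38 (adjusted p = 2.4e-07). Ccr2, a receptor that draws cells to inflamed tissue, had 8 UMIs against 137 (-2.95 ± 0.54, adjusted p = 0.00085), and Ctla2a, a protease inhibitor of activated T cells, 5 against 92 (-3.56 ± 0.71, adjusted p = 0.0014). Hmgb2, a chromatin protein abundant in dividing cells, was lower, at -2.01 ± 0.33 (adjusted p = 0.00020). S100a6, S100a10, Id2 and Crip1 were lower too, so that 6 of the 11 genes of memory and activation were lower and 2 higher. At least 6 proliferation genes were found in 5 of the 109 cells without effector genes (4.59%) and in 42 of the 96 effector cells. Without the combination 5 genes passed the test and without anti-CD27 17, whereas without anti-CD20 121 passed. Leaving out the mixed barcodes gave 87 of 428.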

How the data were processed

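Drop-seq libraries of splenocytes were made for 4 treatments. The authors used STAR 2.5.0a and mm10 for alignment, and the deposited table holds raw counts of UMIs for 17252 genes in 3198 barcodes. Barcodes with 300 to 3000 genes were kept, as in the methods, and no doublet caller was run. UMIs were summed over the selected cells of a library and given as CPM, with exact intervals (Clopper-Pearson for shares, Newcombe for their differences, Poisson for levels). Genes needed 20 UMIs over both libraries. Cell types were compared with edgeR 4.0.16 on sums per library (TMM, filterByExpr with a minimum count of 10, library as block), where the SE is the log2 fold change over the square root of the F statistic. DESeq2 1.42.0 was an alternative. Both procedures were tested on simulated data. Further alternatives were 500 genes as the lower limit, no upper limit, no effector gene, 2 UMIs of Cd8a and Cd8b1, a pseudocount of 50 CPM, 50 UMIs, TMM or other totals, means over cells, no library term, all genes with at least 1 UMI, and leaving out each library. Named genes were, between treatments, 10 ratios at either end among genes that held 30 UMIs or more, in 8 cells or more, and whose interval excluded 1, and between cell types the 12 largest changes each way with 1 direction in every library, plus list members with most UMIs. Immunoglobulin, haemoglobin, ribosomal and mitochondrial genes were only summed between treatments. The members, lists and tests were chosen with earlier results of these data known, and the mixed barcodes, like barcodes 1 base from a deeper one, were defined after seeing the data. Some genes that met these rules are not reported here. Python 3.11.15, scipy 1.17.1 and R 4.3.3 were used.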

Additional observations from a re-analysis of the deposited data

Results flagged for a closer look

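Ifi27l2a lay in opposite directions when anti-CD27 was added to anti-CD20 and when it was given alone, since its log2 ratio was -1.09 in the combination over anti-CD20 and 2.37 in anti-CD27 over the isotype control (1.49 without the mixed barcodes). Malat1 did so as well, at -0.18 and 1.14. The difference between the contrasts was not tested, as each treatment is 1 library. Barcodes outside the limits on genes also met the conditions of the selection. Under 300 genes there were 9 in the combination, 11 in anti-CD20 and 6 in anti-CD27, beside 5 in the isotype control, and over 3000 genes there was 1 in the combination and none in the isotype control.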

How the results depend on the processing

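The difference in share between the combination and anti-CD20 was -3.36 points (-6.79 to 0.12) of the cells kept and -11.5 points among cells with a CD3 or Trac UMI. Its direction was negative under every alternative, but under most of them the interval held 0. With cells thinned to 500 UMIs it was -0.65 points (-3.91 to 2.68). Genes at least 2-fold apart between these libraries numbered 69 with no effector gene allowed, 23 with at least 50 UMIs and 100 without the mixed barcodes, and between anti-CD27 and the isotype control 24 and 8 under the first 2 of these settings. No paired analysis was possible between treatments because each has 1 library and their ratios come from no test, and an additive fit of both antibodies over the 4 libraries, with 1 residual degree of freedom, was not run. Without the replicate block (no library term) 18 genes passed against CD4 T cells and 69 against effector CD8 T cells. DESeq2 gave 6 and 37, the sums with no effector gene allowed 0 (of 164 tested, 18 at an unadjusted p under 0.05) and 10, and all genes with at least 1 UMI gave 7 against effector CD8 T cells. Leaving out 1 library gave 3 to 24 genes against CD4 T cells and 5 to 121 against effector CD8 T cells. With no effector gene allowed, the log2 ratio reversed for Ctsb (-3.40) and Thoc7 (0.89) in the combination over anti-CD20, and for Snrpd3 (-0.71) and Son (-0.32) in anti-CD27 over the isotype control. Without the mixed barcodes it reversed for Cst3 (-0.12) and Plac8 (-0.58) in the second. The cause was not tested. Of the single genes tested between cell types, 257 values over all alternatives stayed on their side of the threshold, 132 did not and none reversed. With 11 cells in the isotype control, ratios against it are imprecise.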
